A study of Mus musculus with 4 samples.

Results

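The cell cycle and DNA replication genes described here are 40 genes of the 24421 in the count tables, given as a list of names by their known roles. They comprise 16 genes of S phase, when DNA is copied, 21 genes of mitosis, when the copies are separated, and 3 genes of G1, the phase before S. RNA came from lung endothelial cells (ECs) of 2 mice, named EC1 and EC2, whose model the labels give as an inducible knockout of ADAR1 specific to ECs (i-KO). Both were male C57/BL6 mice, 2 weeks of age, from independent litters. ECs were selected with beads against CD31 and ICAM-2 and cultured, and from each mouse a culture treated with 4-OH-tamoxifen (TM), which switches on the Cre recombinase, and an untreated culture (CON) were sequenced. Both groups thus carry the floxed ADAR1 alleles and the inducible Cre, with n = 2 libraries a group that share their mice. What drives the inducible Cre is not given in the sources used here. None of these 4 libraries comes from a TM-treated culture without the floxed alleles, so that tamoxifen and the deletion cannot be told apart in them.

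A cell enters the cycle when D-type cyclins, with their kinases, phosphorylate the retinoblastoma protein and free E2F transcription factors, which switch on the genes that load the replication helicase and make nucleotides. Genes of mitosis are switched on later, and many of their promoters hold a CHR element (cell cycle genes homology region) and CCAAT boxes, which the MuvB complexes and NF-Y bind. The inhibitor p21, the product of Cdkn1a, blocks cyclin-dependent kinases. Most ECs of a vessel wall rest, while ECs in culture divide.

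Promoter letters are shown first, as a measure of these genes other than RNA. RefSeq promoters (GRCm38.p6, from 250 bases before to 50 bases after a gene's start) were at hand for 32 of the 40 genes, with 35 promoters. The CHR was searched as TTTGAA or TTCGAA, the CCAAT box as CCAAT, and the E2F site as TTTCCCGC, TTTCGCGC, TTTGCCGC or TTTGGCGC, each on both strands. TTCGAA reads the same on both strands and so is found on both at once. A CHR was found in 15 of 18 mitotic promoters (83.3%), in 2 of 15 S phase promoters (13.3%) and in 19.2% of all 32851 promoters. An E2F site was found in 1 of 18 mitotic promoters, in 7 of 15 S phase promoters (46.7%) and in 2.26% of all. CCAAT boxes stood in 16 of 18 mitotic and 10 of 15 S phase promoters, against 37.4% of all, and a CHR together with a CCAAT box in 14 and 2, against 7.52%. In longer lists of other genes of each phase, described further on, a CHR was found in 67.4% of 43 mitotic and 25.6% of 39 S phase promoters, and an E2F site in 9.30% and 28.2%. The difference between the phases was not tested. The windows of 30 bases below hold the matched CHR or E2F letters in capitals, read on the strand of the gene, the mitotic genes first. Their first capital lies at -98 from the start for Mki67, -140 for Top2a, -18 for Cdc20, -47 for Mcm6, -165 for Mcm7 and -153 for Mcm5. The Mcm7 letters are the E2F site TTTCCCGC read on the other strand, and Mcm7 is also one of the S phase genes with a CHR, a TTCGAA at -173 that stands in lower case in its window. The Mcm5 letters overlap a second E2F match, GCGCCAAA at -149, of which the last 4 letters stand in lower case, and CCAAT boxes in the windows stand in lower case too. The windows lie at chr7:135716460-135716489 (minus strand), chr11:99024312-99024341 (minus), chr4:118437344-118437373 (minus), chr1:128359734-128359763 (minus), chr5:138172030-138172059 (minus) and chr8:75109345-75109374 (plus). A match describes the letters and is not evidence of binding.
Mki67, CHR: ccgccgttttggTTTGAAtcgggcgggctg
Top2a, CHR: ctaattggtttaTTCGAAaaggcggtcttt
Cdc20, CHR: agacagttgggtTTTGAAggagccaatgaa
Mcm6, E2F: gattggacgggTTTGGCGCgaagtagctca
Mcm7, E2F: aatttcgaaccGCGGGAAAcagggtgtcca
Mcm5, E2F: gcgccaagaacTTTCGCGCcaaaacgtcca

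The deletion was checked on Adar, which encodes ADAR1. Its count was 9 in CON and 47 in TM of EC1, and 16 and 71 likewise of EC2, and it rose (log2 fold change 1.87, standard error 0.45, edgeR adjusted p = 0.00609), a call that DESeq2 did not make (adjusted p = 0.0891). Read depth, defined in the next paragraph, moved in opposite directions along the gene. The floxed stretch runs from exon 12 to exon 15. In exons 12 to 14 depth was 109 (3 sites) in EC1 CON and 118 (1 site) in EC2 CON, against 31.6 (2 sites) in EC2 TM, and EC1 TM listed no site. In the exon numbered 15 here, depth was higher in TM, with 74.4 and 320 in CON and TM of EC1 and 109 and 403 in those of EC2. Whether the sites listed there lie in the floxed stretch was not tested. In exons 1 to 11 depth was 115 and 123 in the CON libraries (EC1 first) against 504 and 470 in TM.

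The genes were read in 2 ways. The first was the gene count, of which each library held 1095488 (CON) and 1096152 (TM) for EC1, and 1222301 and 1778732 for EC2, between 0.823% and 0.858% of the total over all rows of its count table. The second was the read depth at the exonic sites (exon, 5′ UTR or 3′ UTR) that the deposited table of variant sites lists for a gene. For each gene and library, the median depth over these sites was divided by the library's total over all rows of the count table (133078922, 131796753, 143534442 and 207323870, in the order CON and TM of EC1, then of EC2, which is kept wherever 4 values follow each other) and given per 100000000 reads. Depth counts the reads over a position and so does not grow with the length of a gene. A site is listed for a library only if a changed base was called there, and the libraries mostly list different positions of a gene. The change of a gene is the log2 of TM over CON. In bulk RNA, fewer cells in a phase and less RNA per cell cannot be told apart.

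Gene counts gave little on this list. All 40 genes were in the count table, but 9 had at most 3 counts in every library, 23 had at most 3 in some library, 30 stayed under 50 in every library, and 17 passed edgeR's filter on low counts. Ccnb1, which encodes cyclin B1, had 0 counts in all 4 libraries, where a count of 0 allows 2.74, 2.74, 2.45 and 1.69 counts per 1000000 gene counts of the library as deposited (limit of 3 counts, counting error only), yet its exonic depth was 28.6 (EC1) and 30.7 (EC2) in CON and 13.7 in EC2 TM. The 11 genes that share exon bases with an exon of a gene on the opposite strand held 85.3% to 91.3% of the counts on the list. Kif20a (opposite Cdc23), Ccna2 (opposite Exosc9) and Ccne2 (opposite Ints8) alone held 57.8% to 68.3%. The study's methods state default settings for all its pipelines and do not name the strand setting of the counting. In EC2 CON, Ccna2 had 758 counts at a depth of 64.8, and Cdk1, with no exon opposite it, had 0 counts at 65.5. Whether the counts of these 11 genes came from the gene or from its partner was not tested. Counts did not follow depth in other genes either. In EC1 CON, the 6 reference genes described further on had a summed depth of 20848 and 408 counts together. Mki67, with no exon opposite it, had 221 counts there at a depth of 34.6. What the count of any gene measures was not tested, a limit on every count given here, those of Adar included. Depth counts the reads of both strands, so that in depth a gene and its partner cannot be told apart where a site lies in shared exon bases. With only the sites in exons of a single gene, 14 of 15 mitotic genes with a value were lower in TM in both mice, and Ccna2 had too few sites for a test.

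**Figure D1:**
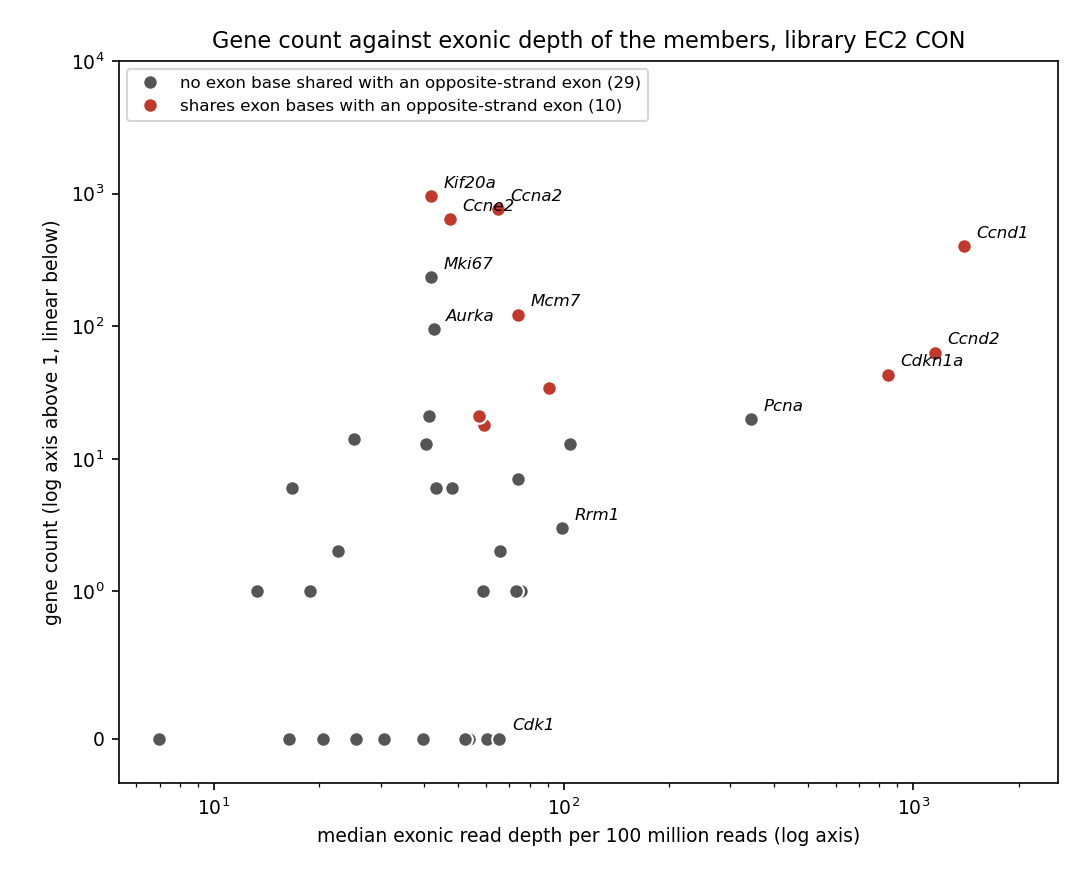
Gene count (vertical, log axis above 1) against median exonic read depth per 100000000 reads (horizontal, log axis) for the 39 members with an exonic site in library EC2 CON, 1 point a gene, red where exon bases are shared with an opposite-strand exon. Cdk1 and Ccna2 have nearly the same depth (65.5 and 64.8) and counts of 0 and 758.

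By counts, none of the 17 genes tested passed the threshold. edgeR's quasi-likelihood test called 612 of 7899 genes (7.75%, with 3.35% called lower and 4.39% called higher in TM) at an adjusted p of 0.05, and 0 of the 17. An unadjusted p under 0.05 was found for 1621 of the 7899 genes and for 2 of the 17 (Mki67 and Aurka). DESeq2 called 362 of 17237 genes and also 0 of the list, of which it tested 39. Its unadjusted p was under 0.05 for 1100 of the 17237 genes and for 1 of the 39. The nearest was Mki67, the gene of the proliferation antigen Ki-67, which has no exon opposite it. Top2a has none either, yet it had 1, 2, 0 and 14 counts. Its depth in CON was the greater (47.7 and 60.3, against 34.6 and 41.8 for Mki67). Why the counts of these genes differ was not tested. The count of Mki67 was 221 (CON) and 139 (TM) for EC1, and 234 and 161 for EC2. Both TM libraries stood below both CON libraries, also after TMM scaling (197 and 213 scaled counts per 1000000 in CON, 126 and 91.6 in TM). The log2 fold change was -0.92 (standard error 0.30, edgeR adjusted p = 0.0572). With the mouse as a block, which called 1184 genes (15%, 7.39% lower and 7.6% higher), the log2 fold change of Mki67 was -0.94 and passed (edgeR adjusted p = 0.000571), and no other gene of the list did. DESeq2 with that block called 401 genes and 0 of the list, and gave Mki67 a log2 fold change of -0.93 (DESeq2 adjusted p = 0.0743). Aurka, the gene of a spindle pole kinase, had 77 counts (CON) and 44 (TM) for EC1, and 95 and 92 for EC2 (log2 fold change -0.74, standard error 0.34, edgeR adjusted p = 0.207).

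In exonic depth, the mitotic genes were lower in TM in both mice in 14 of the 16 cases that had an exonic site in all 4 libraries, and higher in both in 0. Over all 9788 genes with such a site, 36.7% were lower in both mice and 36.3% higher in both. Among the 3348 genes in the same range of mean depth as the mitotic genes (7.84 to 69.8), the shares were 34.9% and 34.4%. The median log2 change of the mitotic genes was -0.52 in EC1 and -0.67 in EC2, against 0.03 and -0.05 over all genes. Each mouse alone had 15 of 16 lower. Of these 16 genes, 14 had under 3 exonic sites in some library, and some differences were small. Prc1 in EC1 had a median of 36 reads over 4 sites in CON and 35 reads at 1 site in TM. The S phase genes were divided: of 12 with a site in all 4 libraries, 3 were lower in both mice (E2f1, Rrm1 and Rrm2), 4 were higher in both (Mcm3, Mcm4, Mcm6 and Mcm7) and 5 moved in opposite directions, with median changes of 0.44 in EC1 and -0.15 in EC2. The difference between the phases was not tested, since genes are not replicates.

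**Figure D2:**
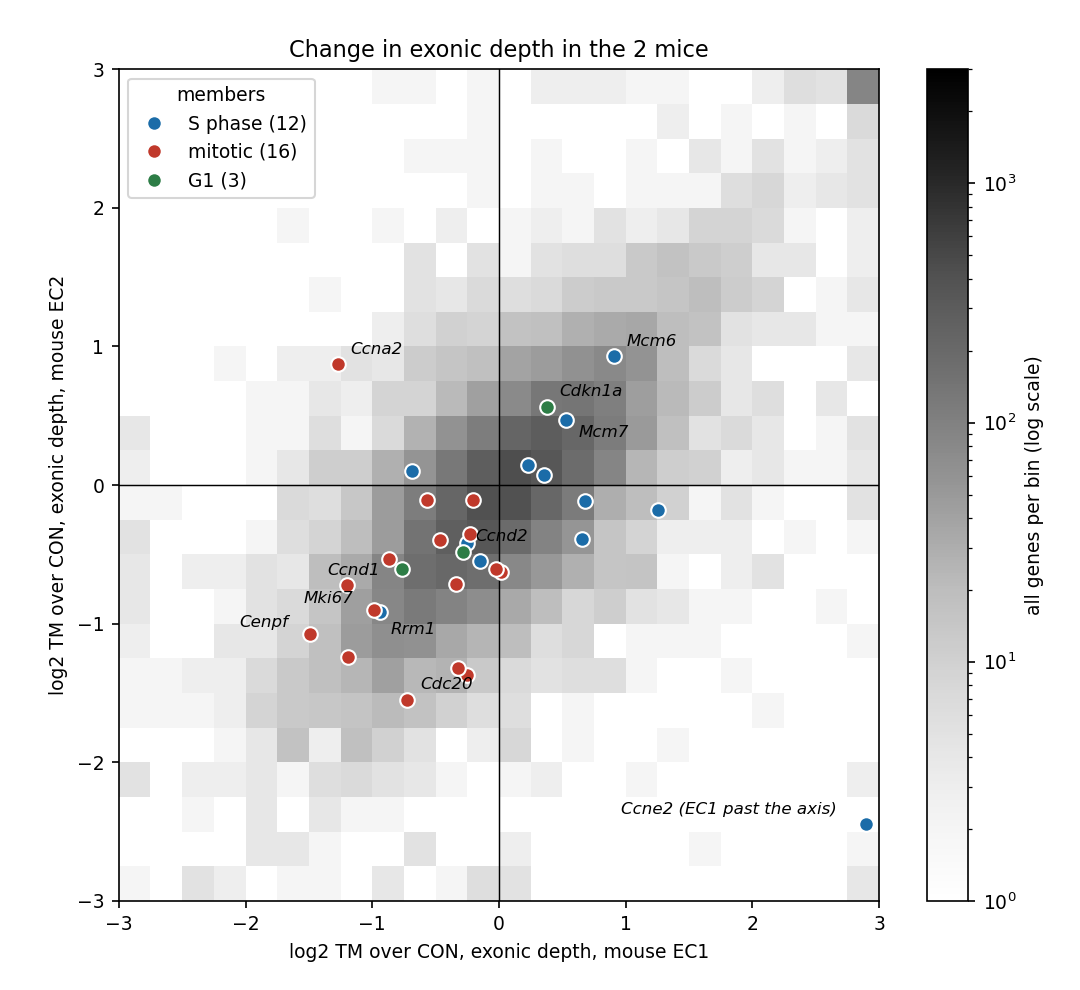
Log2 of TM over CON in exonic depth in mouse EC1 (horizontal) and mouse EC2 (vertical), 1 point a member with an exonic site in all 4 libraries, over the number of all 9788 genes per bin in grey (values past 3 are put in the edge bins). Of the 16 mitotic members 14 lie in the lower left, while of the 12 S phase members 3 lie there and 4 in the upper right. Ccne2, at 5.21 in EC1, is drawn at the edge.

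A test could be made on the genes with at least 3 exonic sites in every library. These were 12 of the 40: Mcm3, Mcm4, Mcm6, Mcm7, Pcna, Rrm1 and Rrm2 of S phase, Mki67 and Ccna2 of mitosis, and Ccnd1, Ccnd2 and Cdkn1a. limma called 809 of 6836 genes (11.8%, with 6.39% called higher and 5.44% called lower in TM) and 0 of the 12. An unadjusted p under 0.05 was found for 1682 of the 6836 genes and for 4 of the 12 (Ccnd1, Mcm6, Mki67 and Rrm1). With the mouse as a block, 1326 genes were called (19.4%, 9.7% in each direction), and these 4 of the 12 passed. When each library was centred on its median, 1442 genes were called (21.1%, 8.31% higher and 12.8% lower), among them Ccnd1, Ccnd2, Mki67 and Rrm1 but not Mcm6. These calls thus differ between fits.

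**Figure D3:**
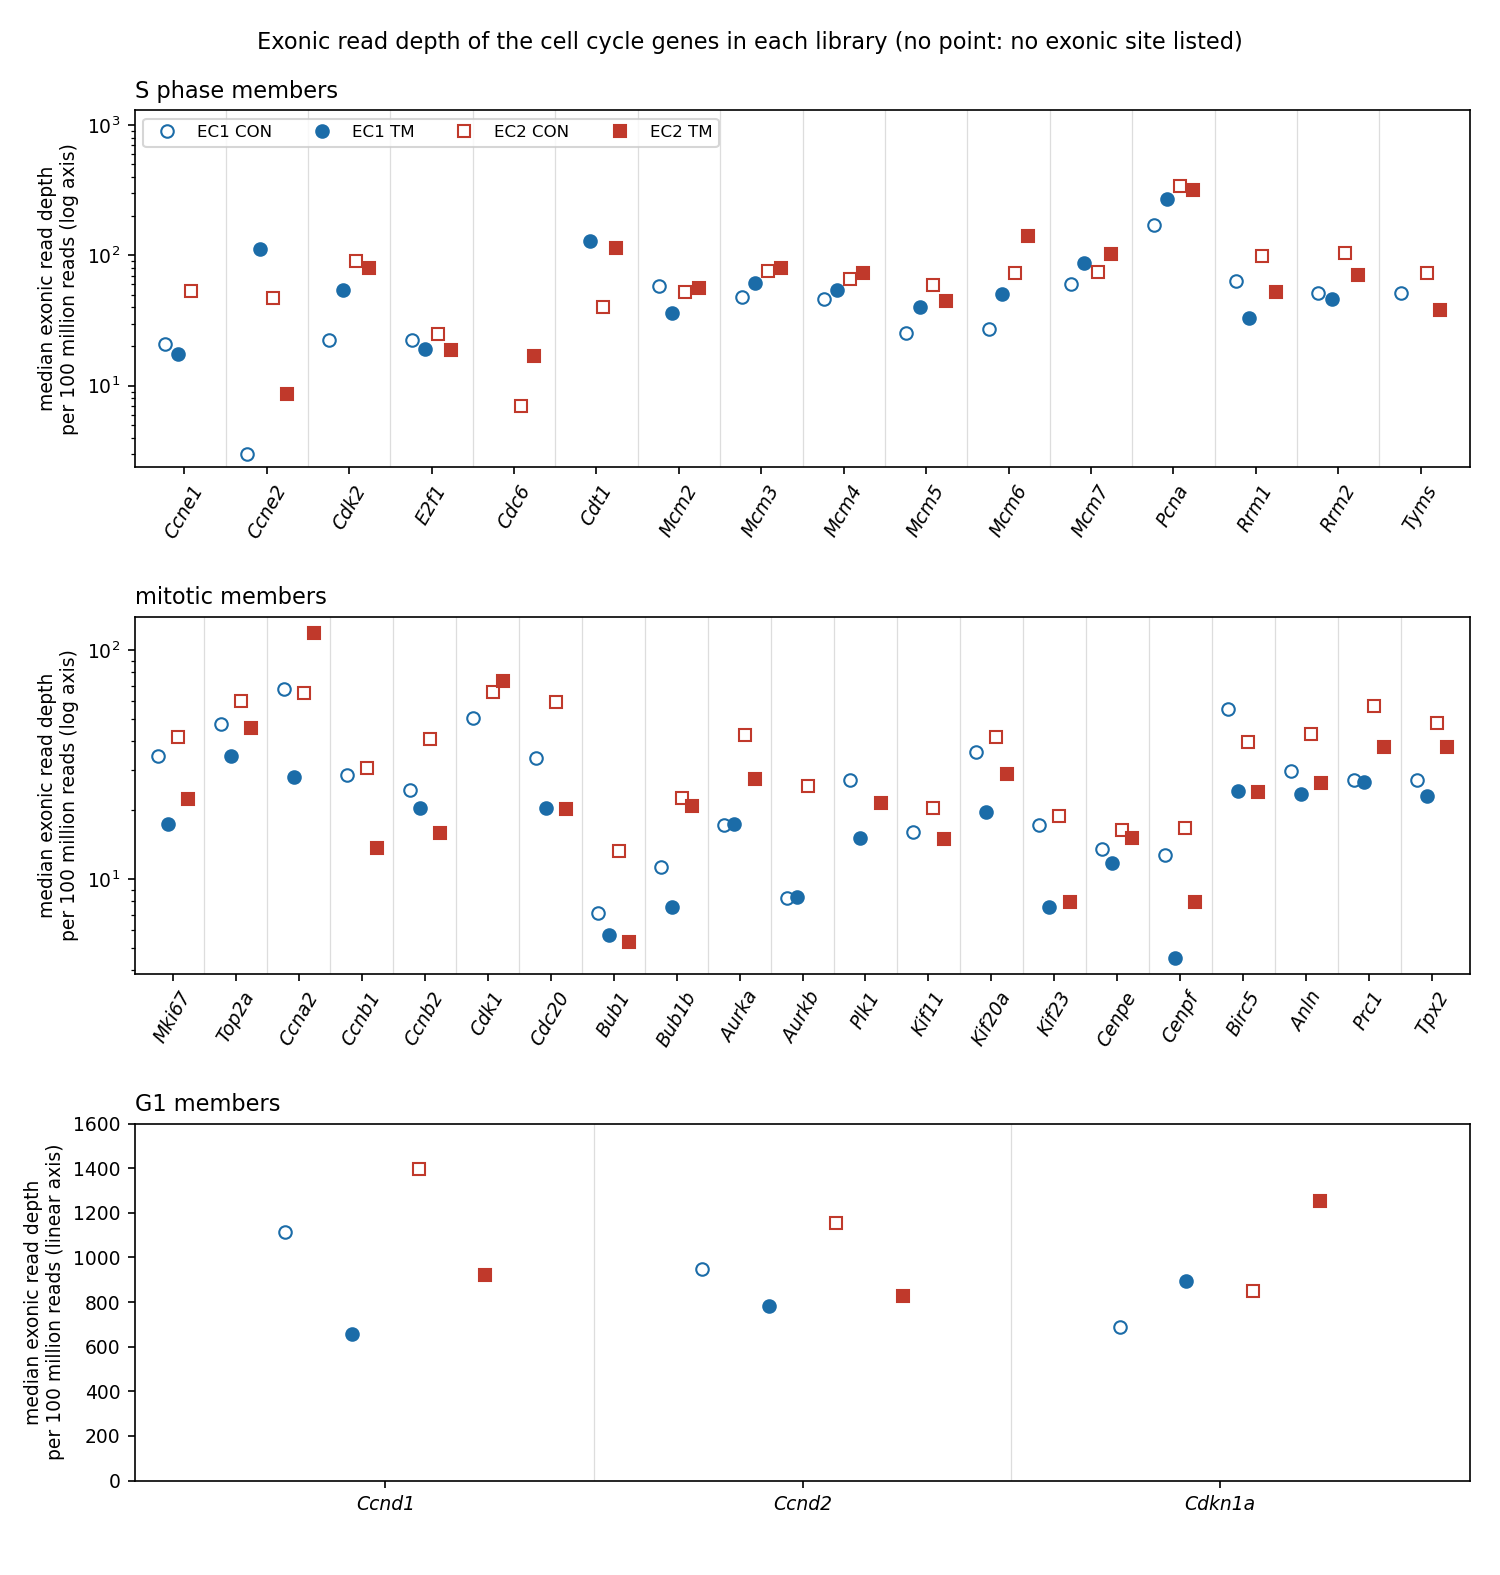
Median exonic read depth per 100000000 reads of each member in each library (circles EC1, squares EC2, open CON, filled TM; log axis for S phase and mitotic members, linear from 0 for G1), with no point where no exonic site was listed. In Mki67, Top2a and Cenpf both filled symbols stand below both open ones, while in Mcm6 and Mcm7 the filled symbol stands above the open one in each mouse.

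Of the mitotic genes, Mki67 (chr7:135689784-135716361, minus strand) had the most exonic sites, 23, 10, 21 and 24. Its depth was 34.6 without and 17.5 with TM for EC1, and 41.8 and 22.4 for EC2. Both TM libraries were below both CON libraries and the mice differed little. The counts had the same direction, under the limit on counts given above. The log2 change in depth was -0.94 (standard error 0.35, limma adjusted p = 0.0752), and it passed with the mouse as a block (limma adjusted p = 0.0469) and with centred libraries (0.0312). Top2a encodes the topoisomerase that untangles chromosomes. Its depth was 47.7 (CON) and 34.5 (TM) for EC1, and 60.3 and 45.8 for EC2. The libraries of TM were again the lower ones, though EC1 TM listed 2 sites only and no test was made.

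Ccnb2, the gene of cyclin B2, a partner of the mitotic kinase Cdk1, had a depth of 24.4 in CON and 20.5 in TM of EC1, and 41.1 and 15.9 likewise of EC2. Its change was small in EC1 (-0.25) and large in EC2 (-1.37), but at the 2 positions listed in both libraries of a mouse it was -0.76 in EC1 and, at 2 positions, -0.85 in EC2. Cenpf, a kinetochore protein gene, was at 12.8 and 16.7 in the CON libraries (EC1 first) against 4.55 and 7.96 in TM. This was the largest relative difference of the mitotic genes in EC1 (-1.49), and in EC2 it was -1.07. Cdc20, whose product activates the complex that ends metaphase, had the largest in EC2 (-1.55), with a depth of 59.2 in CON (1 site) and 20.3 in TM (3 sites), and in EC1 it was at 33.8 and 20.5. Its count went the other way, at 18, 18, 18 and 39 in the 4 libraries (log2 fold change 0.26, standard error 0.47, edgeR adjusted p = 0.831).

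Anln, the gene of the contractile ring protein anillin, had a depth of 29.7 (CON) and 23.5 (TM) for EC1, and 43.2 and 26.3 for EC2. Tpx2, a spindle assembly factor gene, was at 27.1, 23.1, 48.1 and 37.6 in the same order. Kif20a, a kinesin gene of the late spindle, was at 36.1, 19.7, 41.8 and 28.9, with a single site in each EC1 library. For these 3 genes, TM was the lower library in each mouse, but EC2 TM stood above EC1 CON for Tpx2, so that the groups overlapped there and not for the others. The log2 changes (EC1 first) were -0.20 and -0.11 for Cenpe, a kinetochore motor gene, -0.57 and -0.11 for Bub1b of the spindle checkpoint, and -0.03 and -0.60 for Prc1, a midzone protein gene. They were -1.19 and -1.24 for Kif23, a kinesin of the division furrow, -1.20 and -0.72 for Birc5, the gene of survivin, and -0.33 and -1.32 for Bub1, another checkpoint gene. None of these 6 genes had enough sites for the test of depth described above.

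The other 2 mitotic genes with a site in every library did not share this direction. Ccna2, the gene of cyclin A2, which acts in S phase as well as in early mitosis, had a depth of 67.6 in CON and 28.1 in TM of EC1, and 64.8 and 119 likewise of EC2. The mice went opposite ways, and the fitted log2 change of -0.20 (standard error 0.40, limma adjusted p = 0.823) was -1.24 without EC2 TM and 0.84 without EC1 TM. Aurka was at 17.3 and 17.5 in EC1 and at 42.5 and 27.5 in EC2. In the remaining 5 genes a library listed no site. Ccnb1 (-1.16) and Kif11, a spindle motor gene (-0.46), were lower in TM in EC2, Cdk1 was at 65.5 and 73.3 in EC2, Plk1, a mitotic kinase gene (-0.83), was lower in EC1, and Aurkb, the gene of another such kinase, was at 8.27 and 8.35 in EC1.

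Positions listed in both libraries of a mouse allow a comparison of depth at the same base. Mitotic genes had 5 such positions in 4 genes in EC1, of which all 5 were lower in TM with a median log2 change of -0.79, and 4 positions in 3 genes in EC2, of which 3 were lower with a median of -0.84. Over all genes, 8326 of 16658 positions were lower in EC1 and 12835 of 22113 in EC2. Depth is known only where a site is listed, so that such positions were few.

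Of the 12 S phase genes with a site in all 4 libraries, the 4 higher in both mice are 33.3%, against 36.3% of all genes, and with the mean depth in place of the median there were 2. Those of the replicative helicase, which unwinds DNA ahead of the polymerases, come first. Mcm6, a helicase subunit gene (chr1:128331590-128359664, minus strand), had a depth of 27.1 and 73.8 in the CON libraries (EC1 first) against 50.8 and 141 in TM. The ratio was almost the same in each mouse, but EC2 CON stood above EC1 TM, so that the groups overlapped. The log2 change was 0.92 (standard error 0.40, limma adjusted p = 0.146), it passed with the mouse as a block (limma adjusted p = 0.0266), and with centred libraries it was 0.85 and did not (0.282). The change was 1.66 without EC1 TM and 1.65 without EC2 CON, which passed, and 0.20 without EC1 CON and 0.19 without EC2 TM. At the 3 positions shared in EC1 and the 4 in EC2 it was 0.93 and 1.16. Mcm7, another subunit, had a depth of 60.5 and 74.2 in the CON libraries (EC1 first) against 87.3 and 103 in TM. Here both TM libraries were above both CON libraries, with a log2 change of 0.50 (standard error 0.29, limma adjusted p = 0.305).

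The other helicase subunits had smaller differences, or mice that disagreed. Mcm3 was at 48.1 (CON) and 61.5 (TM) for EC1, and 75.6 and 79.6 for EC2, and Mcm4 at 46.6, 54.6, 65.8 and 72.8. For both, the mice differed more than CON and TM did, with fitted log2 changes of 0.21 and 0.19 (limma adjusted p = 0.734 and 0.777) that turned to -0.11 and -0.06 without EC1 CON, and for Mcm4 to -0.02 without EC2 TM. Mcm2 was at 57.9 and 36.0 in EC1 and at 52.3 and 56.0 in EC2, and Mcm5 at 25.5 and 40.2 in EC1 and at 58.9 and 44.9 in EC2. Pcna encodes the clamp that holds the polymerases on DNA and was the deepest S phase gene. Its depth was 171 in CON and 272 in TM of EC1, and 343 and 316 likewise of EC2, a log2 change of 0.28 (standard error 0.30, limma adjusted p = 0.640) that was -0.22 without EC1 CON.

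Rrm1 and Rrm2 encode the subunits of ribonucleotide reductase, which makes deoxynucleotides. The depth of Rrm1 (chr7:102441695-102469771, plus strand) was 63.9 (CON) and 33.4 (TM) for EC1, and 98.9 and 52.6 for EC2. Both TM libraries were below both CON libraries, with a log2 change of -0.92 (standard error 0.32, limma adjusted p = 0.0590) that passed with the mouse as a block (0.0276), with centred libraries (0.0336) and without EC1 CON (-1.24). It was -0.60 without EC1 TM, -0.61 without EC2 CON and -1.25 without EC2 TM, which did not pass. At positions listed in both libraries of a mouse, however, Rrm1 was higher in TM in EC1 (0.69, 4 positions) and lower in EC2 (-0.48, 8 positions), so that the difference in EC1 did not appear at shared positions. Rrm2 had a depth of 51.5 and 105 in the CON libraries (EC1 first) against 46.3 and 71.4 in TM. The change of -0.35 (standard error 0.33, limma adjusted p = 0.577) was 0.16 without EC2 CON. Tyms, the gene of thymidylate synthase, was at 51.8 in EC1 CON and at 73.2 and 38.3 in EC2, and had no site in EC1 TM.

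The remaining S phase genes act at the entry into S phase. E2f1, an E2F transcription factor gene, was at 22.5 (CON) and 19.0 (TM) for EC1, and 25.1 and 18.8 for EC2, on 1 or 2 sites a library. Cdt1, which loads the helicase and is destroyed once S phase starts, had no site in EC1 CON and a depth of 129 (4 sites) with TM, and in EC2 40.4 (5 sites) without and 114 (7 sites) with TM. Its count of 15, 17, 13 and 48 in the 4 libraries gave a log2 fold change of 0.78 (standard error 0.49, edgeR adjusted p = 0.401), which was 0.27 without EC2 TM. Cdc6, its partner in loading, was at 6.97 and 16.9 in EC2 on 1 site each. Cdk2, the S phase kinase, was at 22.5 and 53.9 in EC1 and at 90.6 and 80.1 in EC2. Of its cyclins, Ccne1 was at 21.0 and 17.5 in EC1, and Ccne2 went from 3.01 to 112 in EC1 and from 47.4 to 8.68 in EC2 on 1 to 7 sites, the widest disagreement between mice on the list.

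The G1 genes were the deepest on the list and together lay on 245, 256, 313 and 324 exonic sites in the 4 libraries. Ccnd1, the gene of cyclin D1 (chr7:144929931-144939925, minus strand), had a depth of 1112 without and 656 with TM for EC1, and 1398 and 920 for EC2. Both TM libraries were below both CON libraries. The log2 change was -0.68 (standard error 0.30, limma adjusted p = 0.157) and passed with the mouse as a block (0.0214) and with centred libraries (0.0145). It was -0.44 without EC1 TM and did not pass. The positions shared within a mouse gave -0.78 (10 positions) and -0.66 (18 positions). Its count, which may hold reads of LTO1 on the opposite strand, gave a log2 fold change of -0.06 (standard error 0.28, edgeR adjusted p = 0.947).

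Ccnd2, the gene of cyclin D2, was at 951 in CON and 781 in TM of EC1, and 1154 and 827 likewise of EC2. It was lower in TM in both mice by a log2 change of -0.38 (standard error 0.29, limma adjusted p = 0.472), which passed with centred libraries only (-0.46, limma adjusted p = 0.0411) and not with the mouse as a block (0.103). The change was -0.24 without EC2 CON. Cdkn1a (chr17:29090976-29100727, plus strand) went the other way, with a depth of 690 and 848 in the CON libraries (EC1 first) against 895 and 1255 in TM. Both TM libraries were above both CON libraries, by a log2 change of 0.47 (standard error 0.30, limma adjusted p = 0.362) that did not pass with the mouse as a block (0.0618) or with centred libraries (0.0936). It was 0.23 without EC2 TM and 0.71 without EC1 TM. The count of Cdkn1a was 37, 48, 43 and 100 in the 4 libraries (log2 fold change 0.48, standard error 0.37, edgeR adjusted p = 0.507), and the fold change was 0.25 without EC2 TM.

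Further genes of the pathway were read by lists. Of 49 other mitotic genes, 20 had an exonic site in all 4 libraries, of which 12 (60%, against 36.7% of all genes) were lower in both mice and 3 (15% against 36.3%) higher, with median changes of -0.69 in EC1 and -0.32 in EC2. The lowest were Ckap2, a spindle protein gene (-1.24 and -1.97), and Espl1, the gene of separase (-0.69 and -2.42), and the highest were Pttg1, the gene of securin, which holds separase in check (1.59 and 1.11), and Dlgap5, a spindle gene on which the mice disagreed (-0.89 and 1.79). Of 7 tested, limma called 0, with 1 at an unadjusted p under 0.05 (1682 of all 6836 genes), and 0 with the mouse as a block. Of 40 other S phase genes, 19 had a site in all 4 libraries, of which 6 (31.6%, against 36.7% of all genes) were lower in both mice and 4 higher (21.1% against 36.3%), with medians of -0.16 and 0.05. The lowest were E2f2, an E2F gene of low depth in every library (3.01, 0.759, 6.27 and 1.45, for changes of -1.99 and -2.12), and Rpa2, which binds single-stranded DNA (-1.81 and -0.71). The highest were Dut, which clears dUTP (2.25 and 0.72), and Gins2, another helicase subunit (1.80 and -0.00486). Gins2 shares 2758 of its 4097 exon bases with Gse1 on the opposite strand and had 1 site in EC1 TM, so that reads of the 2 genes cannot be told apart there. Of 7 tested, limma called 0, and with the mouse as a block (all genes 19.4%, 9.7% lower) E2f2 alone (log2 change -2.05, limma adjusted p = 0.0937 and, with the block, 0.0465).

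Among 12 further G1 regulators and inhibitors, 11 had a site in all 4 libraries, 6 (54.5%, against 36.7% of all genes) lower and 5 (45.5% against 36.3%) higher in both mice. Rbl1, of the retinoblastoma family (2.00 and 0.64), and Cdkn2b, the gene of the kinase inhibitor p15 (0.69 and 0.86), were the highest, and the inhibitors Cdkn2d (-1.37 and -0.78) and Cdkn1c (-1.36 and -0.53) the lowest. limma called 0 of 6, with 2 at an unadjusted p under 0.05 (1682 of all 6836 genes). With the mouse as a block it called 3 (all genes 19.4%, 9.7% higher), all higher in TM: Ccnd3 (0.55, limma adjusted p = 0.0404), Cdk6 (0.71, 0.0344) and Cdkn2b (0.78, 0.0149). Cyclin D3 and Cdk6 promote entry into S phase, while p15 blocks it. Of 10 p53 target genes, 9 were tested and 1 was called (all genes 11.8%, 6.39% higher). This was Gadd45a, a growth arrest gene, which rose (log2 change 0.98, standard error 0.30, limma adjusted p = 0.0281), with a depth of 424 and 711 in EC1 and 483 and 1115 in EC2. With the mouse as a block (all genes 9.7% in each direction) 3 rose (also Mdm2 at 0.60 and Sesn2 at 0.60) and 2 fell (Ccng1 at -0.74 and Zmat3 at -0.65).

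**Figure D4:**
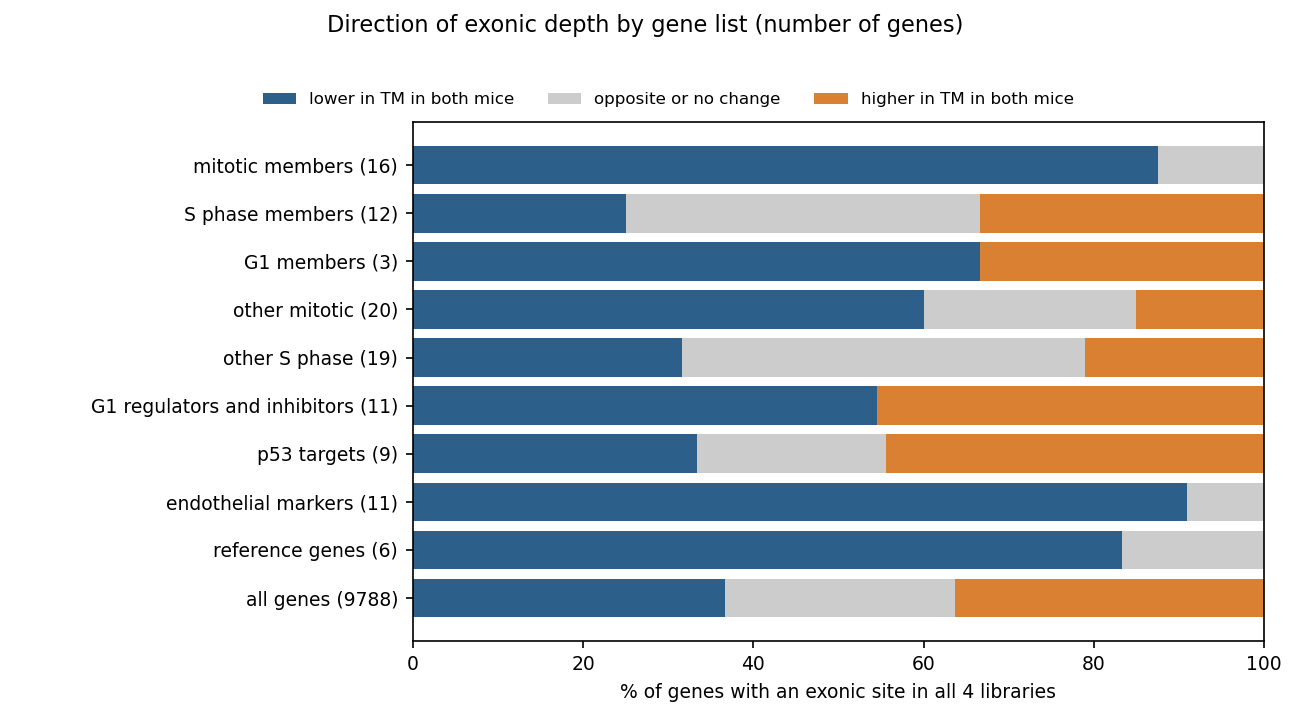
Share of the genes of each list, among those with an exonic site in all 4 libraries (their number in brackets), that were lower in TM in both mice, higher in both, or neither. Lower in both were 87.5% of the mitotic members, 25% of the S phase members and 36.7% of all genes, but also 90.9% of the endothelial markers and 83.3% of the reference genes.

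Genes outside the cell cycle were read in the same way. Of 11 endothelial markers, all with sites in all 4 libraries, 10 were lower in TM in both mice (36.7% of all genes), with median changes of -0.53 in EC1 and -0.59 in EC2. The summed depth of the 11 was 22487 (CON) and 20097 (TM) for EC1, and 28101 and 22231 for EC2. Cdh5, Emcn and Eng were the most abundant in one library or another (Cdh5 at 4730, 4401, 5317 and 4979), and Pecam1, the gene of CD31, was at 2247, 1466, 2750 and 1692. Of 6 reference genes, 5 were lower in both mice, with medians of -0.09 and -0.30. Of all 904 genes with a mean depth of at least 500, 50.4% were lower in both mice and 30.1% higher. limma called 0 of the 10 endothelial markers tested, with 4 at an unadjusted p under 0.05 (1682 of all 6836 genes). With the mouse as a block it called 4, all lower, against 9.7% of all genes called lower. By counts, 4 of 9 endothelial markers and 1 of 4 reference genes had a negative log2 fold change, as had 4 of 7 mitotic and 3 of 7 S phase members. These signs rest on few counts. The 6 reference genes together held 408, 386, 401 and 748 counts, at summed depths of 20848, 18412, 30125 and 22314. Whether these values bear on those of the cell cycle genes was not tested.

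Markers of other cells were also read. Of 10 fibroblast and smooth muscle markers, 4 had an exonic site in all 4 libraries, 3 of them lower in both mice, and the summed depth of the list was 598 in CON and 204 in TM of EC1, and 940 and 322 likewise of EC2. These sums hold different genes, since 8, 5, 9 and 8 of the list had a site in the 4 libraries. The summed counts, not scaled, were 641, 644, 637 and 866. By edgeR, 2 of the 4 tested were lower in TM, with a median log2 fold change of -0.02. Dcn was the most abundant but for Tagln in EC2 TM (Dcn at 255, 92.9, 311 and 104, and Tagln at 116 there) and Lum had no exonic site in any library. The lymphatic markers had a summed depth of 4845, 4386, 6916 and 4740, most of it Lyve1, and Prox1, the lymphatic regulator, fell (log2 change -1.57, standard error 0.28, limma adjusted p = 0.000143). Leukocyte markers summed to 36.8, 20.9, 28.6 and 35.0, with Cd68 at most 26.3 and Ptprc, Itgam, Adgre1 and Cd3e without an exonic site. Epithelial markers had no exonic site but for Krt8 in EC2 TM (3.38). What share of the reads of the cell cycle genes came from fibroblasts or lymphatic ECs was not tested.

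Introns of these genes were mostly thinly covered. Of the 40 genes, 7 had at least 3 intronic sites in every library, and limma called 78 of 5539 genes (1.41%, with 0.506% called lower and 0.903% called higher in TM) and 0 of these 7, with 0 at an unadjusted p under 0.05 (412 of all 5539 genes). The intronic sites of Mcm6 had a median depth of 1, 2, 2 and 4 reads in the 4 libraries, and those of Rrm1 of 2, 2, 2 and 1. Ccnd2 had 19, 17, 10 and 22. What size of change the intronic test could detect was not tested. Sites of the 40 genes where the changed base made up a share of 0.05 to 0.95 of the reads, with 5 reads or more of which 3 or more held it, numbered 4, 3, 12 and 26. Of the last, 16 lay in Mcm6, while 7 of those in EC2 CON lay in Ccnd2.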

How the data were processed

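RNA of 4 libraries (CON and TM of 2 mice) was depleted of ribosomal RNA and sequenced. Per the labels and the study's methods, the authors used Trimmomatic 0.38, STAR 2.6.1a (mm10) and HTSeq 0.11.2, and deposited raw counts without normalization, and, from variants called with BCFtools, reads per base and an altered fraction per site. The authors' annotation is not given in the sources used here. Sites were given to libraries through a labelled table of the study (1998 of 1998 sites equal). Positions came from GENCODE vM21, in whose exons 7420 of 7423 exonic sites of the listed genes lay.

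Counts were tested with the quasi-likelihood test of edgeR 4.0.16 (TMM, filterByExpr), log2 median depth with limma 3.58.1 (at least 3 sites in every library, trend), both on condition only, and p-values adjusted by Benjamini-Hochberg across the genes tested (threshold 0.05), in R 4.3.3. DESeq2 1.42.0 and other settings were alternatives. CON and TM of a number come from 1 mouse. Deviations from the group means correlated between them with r = 0.143 (counts) and 0.100 (depth) over genes. With 2 mice, p-values measure the spread between these libraries. On simulated data, limma called 66.5% of 200 genes changed 4-fold and 0 of 200 changed 2-fold among 6836, and edgeR 82% of 200 changed 4-fold among 7899. In the data limma called 809 genes, so that its adjusted threshold was stricter in the simulation, where fewer genes were changed. The simulated shares are thus not those of the real fit, which called Gadd45a at a log2 change of 0.98. Rows that name no gene did not enter the tests (reads on no gene held 92.8% to 93.9% of each total). Members and lists were chosen with earlier results of these data known. All 40 members were accounted for, and up to 8 of each phase with the most exonic sites in the library that lists fewest, beside Ccnd1, Ccnd2, Cdkn1a, E2f1 and Mki67, were described in full. Of the other pathway lists, the 2 largest changes each way were named, with those called. Python 3.11.15 was used for the rest.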

Additional observations from a re-analysis of the deposited data

How the results depend on the processing

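With the replicate block (pairing by mouse), the genes called by counts (edgeR) went from 612 to 1184 of 7899 (7.75% to 15%). Of the 17 genes of the list tested, those called went from 0 to 1. By exonic depth (limma), the genes called went from 809 to 1326 of 6836 (11.8% to 19.4%), and from 0 to 4 of the 12 of the list. For intronic depth the block gave 58 genes, against 78 without it. DESeq2 called 362 genes, and 401 with the block, with 0 of the list in either fit. By counts, 506 genes and 1 of the list (Mki67) passed with at least 10 counts in every library. By exonic depth, 1442 genes (21.1%) and 4 of the 12 of the list passed with centred libraries. With centring and block together (chosen after seeing the data) 1580 and 5 passed. With at least 10 sites, 539 genes and 2 of the list (Mki67 and Rrm1) passed, and Ccnd1, Ccnd2 and Cdkn1a were the others of the list left. With only positions listed in both libraries of a mouse, 119 and 0 passed. With sites annotated exon alone 785 genes and 2 of the list (Mcm6 and Mki67) passed, with the mean depth 1043 and 3 (Mcm6, Mki67 and Rrm1), and with sites in exons of a single gene 903 and 1 (Rrm1), a setting also chosen after seeing the data, as were those on genes lower or higher in both mice. Settings that drop sites or genes can test other numbers of genes, and their shares over all genes were not worked out. No excess of the list over all genes can be read from those calls. Intronic calls were 30 with at least 10 sites, 46 when centred and 18 when centred with the block.

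The median log2 change of the tested S phase genes, 0.21, was -0.92 with at least 10 sites (1 gene left) and 0.58 at shared positions (2 genes left). At shared positions, 1 S phase gene was lower and 1 higher in both mice of 3 with a value, and 2 of 2 mitotic genes were lower. With the mean depth, 2 S phase genes were higher in both mice. In the block of DESeq2, Cdk2 changed by 0.0814 against -0.0822, at shared positions Rrm1 by 0.10 against -0.92, and with the mean depth Ccna2 by 0.23 against -0.20. The cause was not tested.

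When a single library was left out, the one left in its group was assumed to vary like those of the other group. Genes called by exonic depth then numbered 371 (without EC1 TM) to 912, those of the list 0 to 1, and intronic calls 35 (without EC1 TM) to 94, and by exonic depth 391 were called without EC2 TM. The S phase median lay between -0.11 (without EC1 CON) and 0.54 (without EC2 CON). That of the 2 tested mitotic genes lay between -1.18 (without EC2 TM) and 0.0404 (without EC1 TM). In exonic depth, Mcm3 lay between -0.11 and 0.54, Mcm4 between -0.0618 and 0.44, Pcna between -0.22 and 0.78, Rrm2 between -0.86 and 0.16, Ccna2 between -1.24 and 0.84, Rrm1 between -1.25 and -0.60, Mcm6 between 0.19 and 1.66, Ccnd1 between -0.93 and -0.44, Ccnd2 between -0.52 and -0.24, and Cdkn1a between 0.23 and 0.71. In counts, Cdk2 lay between -0.70 and 0.97, Rrm2 between -0.18 and 0.24, Cdc20 between -0.00707 and 0.45, Prc1 between -0.25 and 1.16, Ccnd1 between -0.26 and 0.11, Ccnd2 between -0.44 and 0.0358, Cdkn1a between 0.25 and 0.66, and Cdt1 between 0.27 and 1.11.

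Of the values for single genes of the list under an alternative, 266 kept their direction and side of the threshold, 26 passed it only under the alternative, and 17 changed sign. Depth is known only where a library lists a site, and 14 of the 16 mitotic genes with a value had under 3 sites in some library. No 2-fold change was called in simulated depth, in a setting stricter than the data. A gene not called is thus not shown to be equal.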
